A study of Mus musculus with 15 samples.

Results

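9 genes that detect viral-type RNA or carry the interferon signal were described across 4 transplantable mammary tumour models of p53-null BALB/c mice. They were chosen by name, and all 9 of 9 symbols were found among the 17271 genes of the deposited table: the RNA receptors Ifih1, Ddx58, Dhx58 and Tlr3, the adaptor Mavs, and the transcription factors Irf1, Irf7, Irf9 and Stat2. RNA-seq was done on 15 mammary tumours, 8 of model 2208L, 4 of model 2151R, 2 of model 2225L and 1 of model T11. All 15 are labelled as mammary tumour of the Balbc strain with the p53-NULL genotype, so the groups compared share that deletion and differ by model. By title, 2208L consists of PBS samples (4), 3day nt samples (3) and a ROSEN sample (1), while replicates 3 and 4 of 2151R carry the tags NT2 and NT. The tags of replicates 1 and 2 of 2151R are not explained, no title names a drug, and the ages of the mice are not given in the sources used here. Nothing states whether the samples of a model came from separate mice, so p-values measure the spread between these samples, and each model may stem from 1 original tumour.

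Vertebrate cells recognise viral and misplaced cellular RNA with 2 sets of receptors. In the cytosol, RIG-I (encoded by Ddx58) binds RNA ends that carry a triphosphate and MDA5 (Ifih1) binds long double-stranded RNA, and both signal through MAVS, an adaptor on the outer mitochondrial membrane. LGP2 (Dhx58) is related to both but lacks the signalling domains and tunes their activity, while TLR3 binds double-stranded RNA in endosomes and signals through another adaptor, TRIF. The signal turns on type I interferon, in part through IRF7. Interferon then acts on its receptor to form a complex that holds STAT2 and IRF9, which binds interferon-stimulated response elements (ISREs) in the promoters of many target genes, including several of the sensors and factors themselves. IRF1 is induced mainly by interferon gamma, through a gamma-activated site (GAS).

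The submitters' processing notes name the build mm10, and RefSeq places the genes on GRCm38.p6, the same assembly. Ifih1 lies at chr2:62595618-62646255 on the minus strand and Mavs on the same chromosome at chr2:131234063-131248025 on the plus strand. Ddx58 lies at chr4:40203777-40239825 (minus), Tlr3 at chr8:45395665-45411075 (minus) and Irf7 at chr7:141263183-141266499 (minus). Dhx58 (chr11:100694884-100704271, minus) and Irf1 (chr11:53770014-53778374, plus) share a chromosome. Stat2 lies at chr10:128270498-128292853 (plus) and Irf9 at chr14:55603985-55610030 (plus). All 9 are protein-coding. In the GENCODE annotation of the same assembly, exons of Dhx58, Irf1 and Tlr3 overlap an exon of a gene on the other strand (Dhx58os, Gm17334 and Gm45542), those of Irf7 overlap Phrf1 on the other strand, and those of Irf9 overlap Rnf31 on its own strand. How reads in such overlaps were assigned is not given in the sources used here, so the values of these 5 genes carry that uncertainty.

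RefSeq promoter sequences of GRCm38.p6 were matched for Ifih1, Ddx58, Tlr3, Mavs, Irf1, Irf7, Irf9 and Stat2. The 250 bases upstream of each start were searched on both strands for an ISRE core, which is GAAA, any 2 bases and GAAA again, and for a GAS core, TTCNNNGAA. The windows of Ddx58, Irf7, Irf9 and Tlr3, and 1 of 2 windows of Irf1, hold an annotated exon of the same gene. These windows may miss the promoter in part or whole, so a missing match there does not show that the promoter lacks the core. Among the windows searched, that of Stat2 alone held an ISRE core, with its first base 222 bases before the start. Of 32851 such windows of all genes, 2.98% held one. A GAS core was found in 1 of 2 windows of Irf1, with its first base 90 bases before the start, where 7.02% of all windows held one. The windows of these 2 genes are shown with the match in capitals, beside that of Ifih1, the gene with the largest difference below, which held neither. They are printed from 5′ to 3′ on the strand of the gene, at chr11:53769764-53770013 for Irf1 (plus), chr10:128270248-128270497 for Stat2 (plus) and chr2:62646256-62646505 for Ifih1 (minus).
Irf1: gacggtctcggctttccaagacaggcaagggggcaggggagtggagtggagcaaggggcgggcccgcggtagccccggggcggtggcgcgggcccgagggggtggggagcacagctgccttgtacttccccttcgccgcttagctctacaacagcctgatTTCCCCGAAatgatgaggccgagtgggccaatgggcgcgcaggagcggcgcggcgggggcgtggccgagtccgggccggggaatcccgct
Stat2: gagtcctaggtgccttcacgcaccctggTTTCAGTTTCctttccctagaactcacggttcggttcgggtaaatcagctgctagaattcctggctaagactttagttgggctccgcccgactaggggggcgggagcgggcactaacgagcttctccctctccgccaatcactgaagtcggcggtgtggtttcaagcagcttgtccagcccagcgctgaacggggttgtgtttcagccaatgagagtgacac
Ifih1: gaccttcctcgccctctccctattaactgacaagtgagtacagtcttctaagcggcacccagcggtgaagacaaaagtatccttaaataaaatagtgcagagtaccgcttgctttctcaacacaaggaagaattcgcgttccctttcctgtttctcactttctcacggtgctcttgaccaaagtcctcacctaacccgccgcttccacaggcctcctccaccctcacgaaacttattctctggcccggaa
The match in Irf1 reads TTCCCCGAA and that in Stat2 TTTCAGTTTC, which is an ISRE core on the opposite strand. These matches are descriptions of the letters, and binding was not measured. Only exact matches within 250 bases were sought, so a missing match, as at Ifih1, does not show that a promoter lacks such an element.

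Each value in the table is a log2 expression value that the authors centred per gene, so a value of 0 is an unstated reference level of that gene and a difference of 1 is a 2-fold change. Levels can be compared between samples for a gene but not between genes. The table holds no counts, so depth is unknown, and errors come from how samples of a model vary. No pair of the 15 samples was identical, and none of the 9 genes held an exactly repeated value. Markers of skeletal muscle, 6 genes, were high in replicate 3 of 2151R and in replicates 6 and 8 of 2208L, where their mean centred level was 6.39, 9.41 and 8.89, against -5.42 to 1.67 in the other 12 samples. Epithelial markers, 8 genes, lay from 1.0 to 2.16 in 2208L, from 3.21 to 3.36 in 2225L, from -3.27 to -2.30 in 2151R and at -7.18 in T11. In 2151R 7 of these 8 markers were lower than in 2208L and 1, the basal keratin Krt5, was higher (2.72 against -2.01). The CP numbers in the titles, which the titles do not explain, form separate runs in 2151R, the PBS samples and the 3day nt samples. The CP sample of 2225L has a number outside all of these runs. A difference between these sets, or between them and that sample, cannot be told apart from one between CP numbers.

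The main comparison asked how far the 4 models differ in these genes. 8 of the 9 genes were lower in 2225L than in 2208L by limma with Benjamini-Hochberg adjustment over all genes (adjusted p under 0.05), and none was higher. At this threshold 32.9% of all genes were called, 17.3% lower and 15.6% higher. At the same 8 genes no sample of 2225L overlapped the range of 2208L, as at 31.7% of all genes. The median difference over the 9 genes was -1.59, where that over all genes was -0.04. Between 2151R and 2208L, 3 of the 9 were lower, Tlr3, Irf7 and Irf9, and none was higher, where 48.8% of all genes were called, 22.7% lower and 26.1% higher. The groups did not overlap at these 3 genes, as at 38.8% of all genes, so both counts are near those of the table. Their median difference was -0.45, beside 0.10 over all genes. Between 2225L and 2151R, 5 of the 9 were lower in 2225L, Ifih1, Ddx58, Dhx58, Irf1 and Stat2, and none was higher, where 48.6% of all genes were called, 25.8% lower and 22.8% higher. These 5 genes did not overlap between the models, where 62.4% of all genes did not, and the median difference was -0.99 beside -0.10 over all genes. These comparisons share samples, so they are not independent of each other. The fit shares a spread over the models, so SEs and p-values of 2225L, with 2 samples, rest mostly on 2208L and 2151R. SDs of 2225L exceeded those of 2208L at Ddx58 (0.83 against 0.17), Irf9 (0.74 against 0.22) and Stat2 (0.74 against 0.27). They did so too at Dhx58, Tlr3, Mavs and Irf7, but not at Ifih1 or Irf1. Where they did, the SEs may understate the spread of 2225L.

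**Figure D1:**
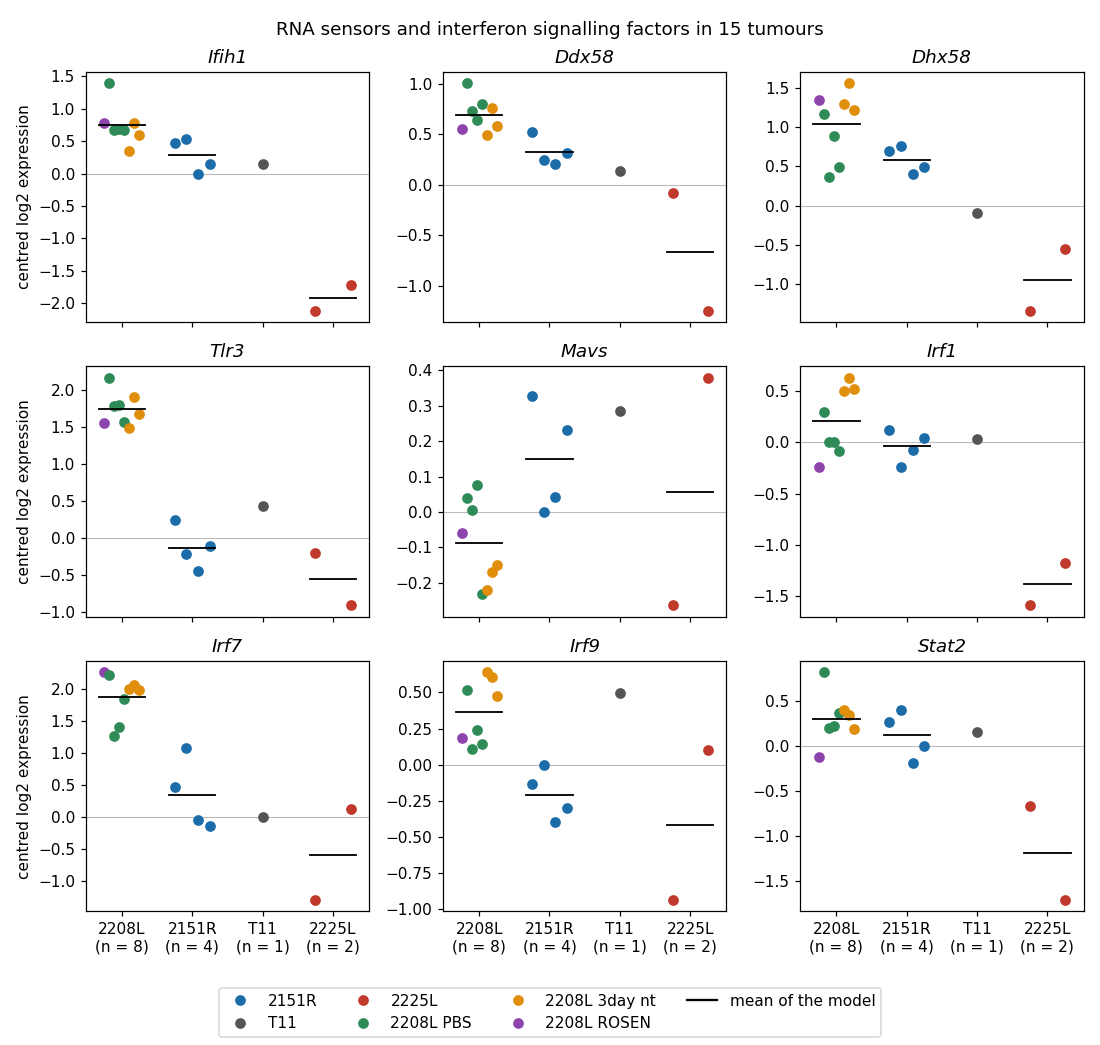
Centred log2 expression (vertical axis, scaled per gene) of the 9 genes in each tumour, by model, with the mean of a model as a line and the subsets of 2208L in colour. The samples of 2225L lie below those of 2208L at 8 genes and on both sides of them at Mavs.

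**Figure D2:**
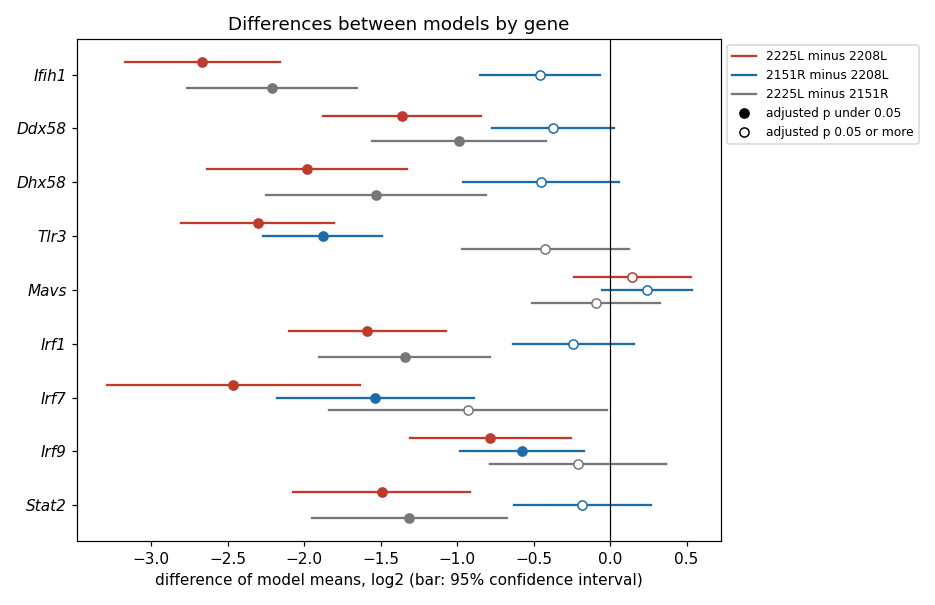
Difference between model means on the log2 scale (horizontal axis) with its 95% confidence interval for the 9 genes and 3 comparisons, where filled points passed an adjusted p under 0.05. The 2225L minus 2208L points run from -2.66 at Ifih1 to 0.15 at Mavs.

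Ifih1, the MDA5 gene, differed most between 2225L and 2208L. It was -2.12 and -1.72 in the samples of 2225L and ran from 0.35 through a median of 0.69 to 1.39 in 2208L. Both samples of 2225L lay below every other tumour. The difference was -2.66 (SE 0.24, limma adjusted p 3.71e-06), a 6.34-fold lower level. Values of 2151R were 0.48, 0.53, 0.00 and 0.15, and T11 lay at 0.15, inside that range. The values of 2151R overlapped those of 2208L, and the difference of -0.46 (95% confidence interval -0.85 to -0.06) did not pass after adjustment (limma adjusted p 0.053). It was called without replicate 2 of 2151R (-0.54) and without replicate 6 of 2208L (-0.51), and also with each sample centred on its median (-0.52), quantile normalization (-0.60), sample weights (-0.59) or only these 2 models in the fit. For 2225L minus 2151R, Ifih1 gave -2.21 (SE 0.26) with a limma adjusted p of 1.42e-05.

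Ddx58, the RIG-I gene, spread less. In 2208L it ran from 0.49 through a median of 0.69 to 1.01, and in 2151R it was 0.52, 0.25, 0.21 and 0.32. The 2 samples of 2225L stood apart from each other, at -0.08 and -1.25, and both lay below all samples of the other models. The difference between 2225L and 2208L was -1.36 (SE 0.24, limma adjusted p 0.000843), but -0.78 without replicate 2 of 2225L and -1.94 without replicate 1. Against 2151R the difference was -0.99 (SE 0.26, limma adjusted p 0.00741). Without replicate 2 of 2225L it was -0.40 and no longer called, and without replicate 1 it was -1.57. It was also not called in a fit of only these 2 models, or of samples titled NT, nt or PBS for 2151R and 2208L (-0.93). Between 2151R and 2208L the difference was -0.37 (95% confidence interval -0.77 to 0.03, limma adjusted p 0.113), and replicate 1 of 2151R lay inside the range of 2208L. It was called with quantile normalization (-0.50), sample weights (-0.41), the CP or ROSEN tag of the title as a covariate (-0.44) or only these 2 models in the fit.

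Dhx58, the LGP2 gene, had its lowest values in the same model. It was -1.34 and -0.54 in 2225L, -0.09 in T11, 0.70, 0.76, 0.40 and 0.49 in 2151R, and from 0.36 through a median of 1.19 to 1.56 in 2208L. The samples of 2225L and T11 lay below all others, while those of 2151R lay inside the range of 2208L. The difference between 2225L and 2208L was -1.98 (SE 0.30, limma adjusted p 0.000309), and that between 2225L and 2151R was -1.53 (SE 0.33, limma adjusted p 0.00207). Between 2151R and 2208L it was -0.45 (95% confidence interval -0.96 to 0.06, limma adjusted p 0.129). It was called against the 3day nt samples of 2208L alone (-0.77) and with quantile normalization (-0.59).

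Tlr3, the endosomal receptor, separated 2208L from the rest. It ran from 1.49 through a median of 1.74 to 2.17 in 2208L, and no sample of another model reached that range. Values were 0.25, -0.22, -0.45 and -0.11 in 2151R, -0.20 and -0.91 in 2225L and 0.43 in T11. The difference from 2208L was -1.88 in 2151R (SE 0.18, limma adjusted p 1.73e-06) and -2.30 in 2225L (SE 0.23, limma adjusted p 1.11e-05), so the level was 3.68-fold and 4.93-fold lower. Between 2225L and 2151R the difference of -0.42 (95% confidence interval -0.97 to 0.12, limma adjusted p 0.186) was not called. Without replicate 1 of 2225L it was called (-0.78), and without replicate 2 it was -0.07.

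Mavs, the shared adaptor of RIG-I and MDA5, differed least. Over the 15 samples its values spanned 0.64, and 1.2% of genes in the table had a smaller SD. It was 0.33, 0.00, 0.04 and 0.23 in 2151R, 0.28 in T11, and -0.26 and 0.38 in 2225L, and it ran from -0.23 through a median of -0.10 to 0.08 in 2208L. The 2 samples of 2225L were the lowest and the highest of all. No comparison of models called Mavs by limma. The confidence intervals bound the difference to -0.06 to 0.53 for 2151R minus 2208L, to -0.23 to 0.53 for 2225L minus 2208L and to -0.51 to 0.32 for 2225L minus 2151R.

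Irf7, the factor that amplifies type I interferon production, spanned the widest range of the 9 genes, 3.55. In 2208L it ran from 1.27 through a median of 1.98 to 2.25. It was 0.47, 1.07, -0.05 and -0.13 in 2151R, 0.00 in T11, and -1.29 and 0.12 in 2225L. All samples of the other 3 models lay below 2208L. The difference from 2208L was -1.53 in 2151R (SE 0.30, limma adjusted p 0.000816) and -2.46 in 2225L (SE 0.38, limma adjusted p 0.000352), or 2.90-fold and 5.51-fold lower. With sample weights the second was -2.27 and no longer called. Between 2225L and 2151R the samples overlapped and the difference of -0.93 was not called (SE 0.42, limma adjusted p 0.0843). It was called without replicate 2 of 2225L (-1.63), and without replicate 1 it was -0.22.

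Irf1, the factor tied to interferon gamma, had its lowest values in 2225L. It was -1.59 and -1.18 there, 0.12, -0.24, -0.08 and 0.04 in 2151R and 0.03 in T11, and it ran from -0.24 through a median of 0.15 to 0.63 in 2208L. Both samples of 2225L lay below every other tumour, while T11 and all 4 samples of 2151R lay inside the range of 2208L. The difference from 2208L was -1.59 in 2225L (SE 0.24, limma adjusted p 0.000254), a 3.0-fold lower level, and that from 2151R was -1.34 (SE 0.26, limma adjusted p 0.000887). Between 2151R and 2208L it was -0.24 (95% confidence interval -0.64 to 0.15, limma adjusted p 0.294). Against the 3day nt samples of 2208L alone it was -0.59 and called.

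Stat2, which encodes a partner of IRF9, had the same order at the low end. It was -0.67 and -1.71 in 2225L, 0.27, 0.40, -0.19 and 0.00 in 2151R and 0.15 in T11, and it ran from -0.12 through a median of 0.28 to 0.82 in 2208L. The samples of 2225L lay below all others, and 2151R and 2208L overlapped. The difference between 2225L and 2208L was -1.49 (SE 0.27, limma adjusted p 0.000975), and without replicate 2 of 2225L it was -0.97. Against 2151R it was -1.31 (SE 0.29, limma adjusted p 0.00257), and without replicate 2 of 2225L it was -0.79 and no longer called. Between 2151R and 2208L it was -0.18 (95% confidence interval -0.63 to 0.27, limma adjusted p 0.495).

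Irf9, whose product binds DNA together with STAT2, gave the least firm calls. It ran from 0.11 through a median of 0.36 to 0.64 in 2208L and was -0.14, 0.00, -0.40 and -0.30 in 2151R, 0.50 in T11, and -0.94 and 0.10 in 2225L. The samples of 2151R lay below 2208L without overlap, while replicate 2 of 2225L lay just under the lowest sample of 2208L. The difference from 2208L was -0.57 in 2151R (SE 0.19, limma adjusted p 0.0222) and -0.78 in 2225L (SE 0.24, limma adjusted p 0.0251). The first was no longer called without replicate 3 (-0.51) or 4 (-0.54) of 2151R, and the second without replicate 1 of 2225L (-0.26). Leaving out the 3 samples high in muscle genes ended both calls (-0.45 and -0.72), as did a comparison with the PBS samples of 2208L alone (-0.46 and -0.67). Sample weights ended the second call (-0.73), and so did a fit of only the 2 models compared, while a fit of samples titled NT, nt or PBS ended the first (-0.74). Without replicate 2 of 2225L the second was -1.30. Between 2225L and 2151R it was -0.21 (95% confidence interval -0.78 to 0.37, limma adjusted p 0.544), and it was called without replicate 2 of 2225L (-0.73).

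The order of the model means was 2208L, 2151R, T11, 2225L from high to low at Ifih1, Ddx58, Dhx58 and Irf7. It was 2208L, T11, 2151R, 2225L at Tlr3, Irf1 and Stat2. At Irf9 and Mavs T11 had the highest value, and 2208L the lowest mean at Mavs. Neighbours in these orders did not pass the test between 2208L and 2151R at Ifih1, Ddx58 and Dhx58, and T11 was not tested because it is 1 sample. T11 lay below the range of 2208L at Ifih1, Ddx58, Dhx58, Tlr3 and Irf7, 5 of 9 genes, where 21.7% of all genes did. It lay above that range at Mavs, where 35.8% of all genes did. Its distance from the mean of 2208L passed 1 log2 unit at Irf7 (-1.87), Tlr3 (-1.32) and Dhx58 (-1.13), where 38.5% of all genes lay past 1 log2 unit, 15.6% below and 22.9% above.

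Each title carries a CP or a ROSEN tag, used here as a prefix, and the titles do not explain these tags. The samples of 2225L differ in this prefix, and 2208L holds both prefixes. Within the CP samples (1 against 7) the differences of 2225L from 2208L ran from -3.11 at Irf7 and -2.86 at Ifih1 to -0.80 at Ddx58 among the 8 genes other than Mavs. Within the ROSEN samples (1 against 1) they ran from -2.50 at Ifih1 and -2.47 at Tlr3 to -0.08 at Irf9. All 8 were negative within both prefixes, and Mavs was -0.17 in CP and 0.44 in ROSEN. With 1 sample of 2225L in each, these values carry no test. The CP number of the 2225L sample lies outside the runs of the 2208L samples. The CP difference therefore cannot be told apart from one between CP numbers. With prefix as a covariate the fit called 8 genes lower in 2225L than in 2208L. Without the covariate 17.3% of all genes were lower, and the share with it is not given here. The covariate added a call for Ddx58 in 2151R against 2208L (-0.44) and for Irf7 in 2225L against 2151R (-1.32).

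Markers of some leukocytes moved with the low values of 2225L, and those of others did not. Of all genes, 17.3% were lower and 15.6% higher in 2225L than in 2208L. All 5 pan-leukocyte markers were lower in 2225L than in 2208L, with a median difference of -1.43 and Ptprc, which encodes CD45, at -2.13. Their mean centred level was -2.19 and -0.97 in 2225L, -0.40 to 0.55 in 2208L, 0.41 to 0.73 in 2151R and 0.76 in T11. Of 8 macrophage markers, 5 were lower in 2225L than in 2208L, and their level ran from -2.04 to -0.87 in 2225L and from -0.38 to 0.38 in 2208L. All 4 neutrophil markers were lower, with a median difference of -3.38, and 2 of 6 dendritic cell markers were lower. Of 7 T and NK cell markers 0 were called, and their level was -1.70 and 1.0 in the samples of 2225L, while 2 of 3 B cell markers were higher, with a median difference of 2.37. The part of these cells in the result was not tested, and in bulk tumour RNA fewer cells of a type and less RNA per cell cannot be told apart. Against 2208L, 22.7% of all genes were lower and 26.1% higher in 2151R. In 2151R, where Tlr3, Irf7 and Irf9 were lower than in 2208L, 0 of the 5 leukocyte markers were called lower and 2 were higher, with a median difference of 0.55. There 6 of 8 macrophage markers were higher and 1, Cd14, was lower (-0.85 against 2.91). In 2151R 3 of 7 T and NK cell markers were higher and 0 lower, 2 of 6 dendritic cell markers were lower and 1 higher, 2 of 4 neutrophil markers were lower and 0 higher (median difference -1.54), and 0 of 3 B cell markers were called.

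Within 2208L, PBS samples were compared with 3day nt samples to see how far the 9 genes vary inside a model. By limma on these 7 samples Irf1 was the 1 gene of the 9 called, lower in PBS, where 34% of all genes were called, 16.5% lower and 17.4% higher in PBS, and 3 of the 9 had an unadjusted p under 0.05. Irf1 was 0.30, 0.00, 0.00 and -0.08 in PBS and 0.50, 0.63 and 0.52 in 3day nt. The groups did not overlap, and the difference was -0.50 (SE 0.13, limma adjusted p 0.0253). Leaving out replicate 3, 4, 6, 7 or 8 of 2208L ended this call, though the difference stayed between -0.52 and -0.46. Dhx58 also did not overlap, at 1.17, 0.36, 0.89 and 0.49 in PBS and 1.29, 1.56 and 1.21 in 3day nt (difference -0.63, limma adjusted p 0.066), and it was called without replicate 2 (-0.78). Groups did not overlap at 44.8% of all genes. Irf9 differed by -0.32 (limma adjusted p 0.105) and Irf7 by -0.33 (limma adjusted p 0.309). Dendritic cell markers moved with the subset too, from -1.39 to 0.30 in PBS and from 0.56 to 1.54 in 3day nt, and their part in these values was not tested. Without the 2 samples of 2208L high in muscle genes, which leaves 1 sample of 3day nt, Irf1 differed by -0.57 and was not called.

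Pearson correlations between pairs of the 9 genes were taken inside 2208L, over 8 samples whose CP and ROSEN numbers follow the subsets, and they ran from -0.38 to 0.92. Ifih1 correlated with Ddx58 at 0.85 and with Tlr3 at 0.85, and Ddx58 with Tlr3 at 0.81. Irf1 correlated with Irf9 at 0.92, Dhx58 with Irf9 at 0.76 and Dhx58 with Irf7 at 0.75. Irf7 correlated less with Irf9 (0.53) and Irf1 (0.28), and Irf1 with Dhx58 at 0.57. Between Ifih1, Ddx58 and Tlr3 on one side and Irf1, Irf9, Dhx58 and Irf7 on the other, a split drawn after the values were seen, they ran from -0.23 (Ddx58 with Dhx58) to 0.33 (Ifih1 with Irf7), so the sides overlap in these values. Stat2 crossed this split, at 0.72 with Ddx58 and 0.51 with Irf9. Replicate 2 of 2208L held the highest values of 2208L at Ifih1, Ddx58, Tlr3 and Stat2, and the 3day nt samples were the 3 highest of 2208L at Irf1.

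A list of 95 other genes of these pathways was compared in the same fits, and 84 of them were analysed. The 11 interferon genes on the list, Ifnb1 among them, were not found by symbol among the 17271 genes, so they could not be analysed. Of the 84, 44 were lower and 5 higher in 2225L than in 2208L (limma adjusted p under 0.05), beside 17.3% and 15.6% of all genes. The 5 higher became 2 without replicate 2 of 2225L. Between 2151R and 2208L, 25 were lower and 24 higher, beside 22.7% and 26.1%, so the split was near that of the table. In samples titled NT, nt or PBS 12 were higher in place of 24. The medians were -0.75 for 2225L and 0.08 for 2151R. The shares of all genes, 17.3% lower and 15.6% higher in 2225L and 22.7% and 26.1% in 2151R, are also the reference for each list below. In 2151R the counts of cofactors, of kinases and of JAK-STAT genes lay near these shares.

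**Figure D3:**
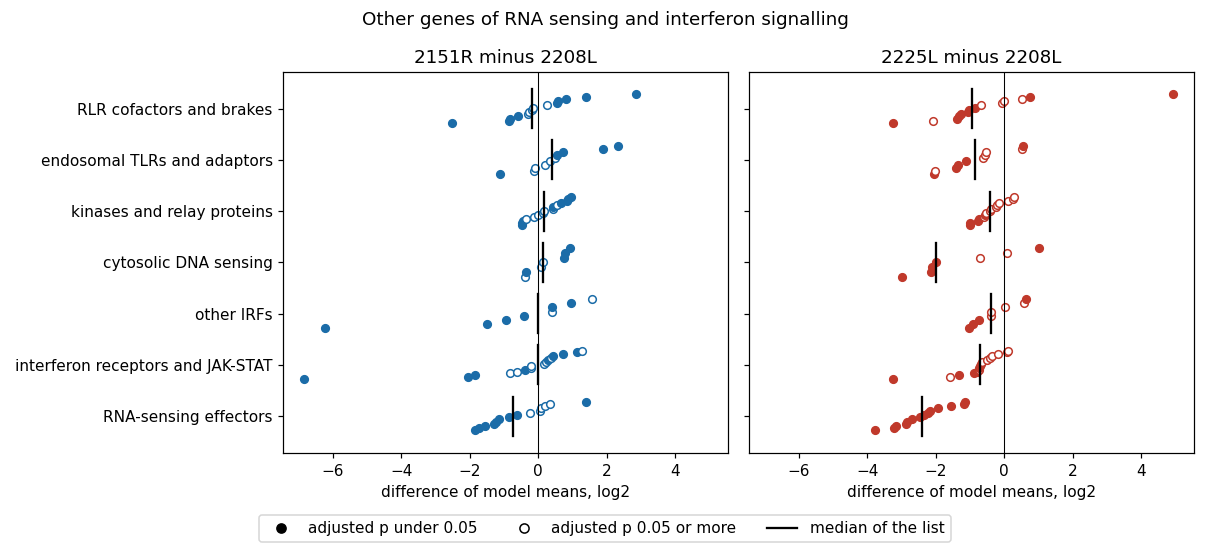
Difference of 2151R (left) and 2225L (right) from 2208L on the log2 scale for 84 other genes of RNA sensing and interferon signalling, by list, with the list median as a bar and filled points where adjusted p was under 0.05. All 14 RNA-sensing effectors lie below 0 in 2225L.

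The effectors that act on or near foreign RNA differed together. All 14 of 14 were lower in 2225L than in 2208L, with a median difference of -2.41, and in 2151R 8 were lower and 1 higher. Ifit1, which binds viral RNA caps, differed by -3.79 in 2225L (SE 0.40, limma adjusted p 1.68e-05) and by -1.84 in 2151R (SE 0.31, limma adjusted p 0.000292). Without the 3 samples high in muscle genes 5 effectors were lower in 2151R, and 14 were lower in 2225L. How reads were divided among the near-identical Oas1 and Ifit copies is not given in the sources used here, so single members of these families are uncertain.

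Among cofactors and brakes of the cytosolic receptors, 7 of 14 were lower and 2 higher in 2225L than in 2208L, and 4 were lower and 5 higher in 2151R. Ddx60, an interferon-induced helicase, differed by -3.25 in 2225L (SE 0.35, limma adjusted p 1.75e-05). Nlrx1, a mitochondrial protein reported to restrain MAVS, differed by -2.51 in 2151R (SE 0.25) and -1.32 in 2225L (SE 0.33). Zcchc3, a cofactor of RNA sensors, went the other way, by 2.87 in 2151R (SE 0.26) and 4.94 in 2225L (SE 0.33).

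Of 10 endosomal Toll-like receptors and adaptors, 4 were lower and 1 higher in 2225L, and 1 was lower and 4 higher in 2151R. Tlr8 was higher in 2151R by 2.34 (SE 0.62) and Tlr9 lower in 2225L by a difference of -2.06. Myd88, the adaptor of most Toll-like receptors but not of TLR3, was the member lower in 2151R (-1.12, SE 0.15). Cnpy3, a chaperone of these receptors, was the one higher in 2225L (0.56).

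Kinases and relay proteins differed by less. In 2225L 5 of 15 were lower and 0 higher, and Ikbkb, a kinase of the NF-kappa-B branch, differed most (-1.0). Tbk1, the kinase that activates IRF3, was lower in 2225L (-0.77, SE 0.23) with a limma adjusted p of 0.0222, and differed by 0.18 in 2151R (limma adjusted p 0.443). In 2151R 5 were higher and 3 lower, with Ripk1 at 0.97 and Azi2, a TBK1-binding adaptor, at -0.48.

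Among the 8 other genes of the IRF list, 3 were lower and 1 higher in 2225L and 4 were lower and 2 higher in 2151R. Irf3, the constitutive factor downstream of MAVS, differed by 0.03 in 2225L (SE 0.17, limma adjusted p 0.901) and by -0.41 in 2151R (SE 0.13, limma adjusted p 0.0213). Irf8, a factor of myeloid cells, was higher in 2151R by 0.96, and Irf5 was lower in 2225L by a difference of -1.02.

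Interferon receptors and JAK-STAT genes held 7 lower and 0 higher of 16 in 2225L, and 4 lower and 4 higher in 2151R. Of all genes, 17.3% and 15.6% were called in 2225L and 22.7% and 26.1% in 2151R, so the 2151R counts were near the table. Usp18, an interferon-induced brake on the receptor, differed by -3.25 in 2225L (SE 0.43) and -2.05 in 2151R (SE 0.34). Ifnlr1, a chain of the interferon lambda receptor that is found mainly on epithelial cells, was lower in 2151R by a difference of -6.86, while Jak1 was higher there by 1.13. Of 7 genes of cytosolic DNA sensing, 4 were lower in 2225L, led by Cgas (-2.99, SE 0.27), and Aim2 was higher by 1.02. In 2151R 3 of the 7 were higher, led by Cgas (0.92, SE 0.21), and Sting1 was lower (-0.35).

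The genes whose values over the 15 samples were most like the mean of the 9 were found among 14171 other genes, as the 5 with the highest Pearson correlation. They were Mx1 (0.98), Ifi44 (0.98), Oasl2 (0.98), Parp12 (0.97) and Ifit1 (0.97). The samples fall into models, so these correlations describe mainly the steps between models. Mx1 was 1.34 ± 0.37 (SD, n = 8) in 2208L, -0.34 ± 0.55 (SD, n = 4) in 2151R, 0.36 in T11, and -2.72 and -1.92 in 2225L.

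**Figure D4:**
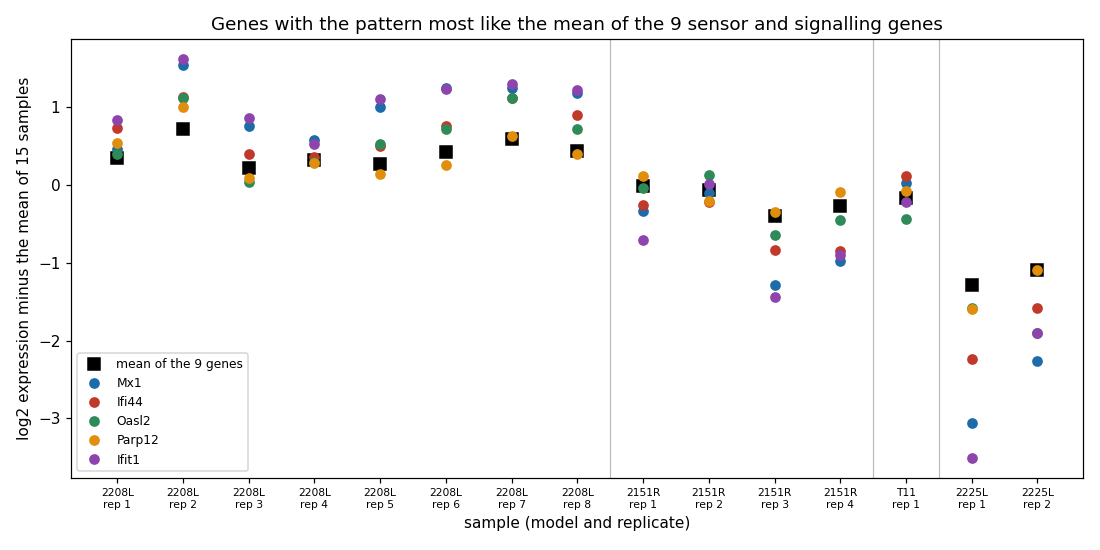
Log2 expression minus the mean of the 15 samples (vertical axis) for the mean of the 9 genes (squares) and the 5 genes most like it (circles), by sample and model. The mean of the 9 genes lies from 0.22 to 0.72 in 2208L, from -0.41 to -0.02 in 2151R, at -0.17 in T11 and from -1.29 to -1.10 in 2225L.

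Single genes had different nearest patterns. Irf7 was closest to Usp18 (0.98), Oasl1 (0.97) and Oas1a (0.96), and Dhx58 to Nmi (0.96), Oas1a (0.95) and Zbp1 (0.95). Irf9 was closest to Ifi44l (0.94), Igtp (0.93) and Uba7 (0.93), and Irf1 to Parp14 (0.96), Bcl2a1a (0.95) and Coq10b (0.95). Stat2 was closest to Slfn4 (0.96), Jak3 (0.95) and Gpr35 (0.94), and Ddx58 to Jak3 (0.96), Mettl4 (0.96) and Snhg14 (0.95). Ifih1 was closest to Rab10 (0.97), Chsy1 (0.96) and Kif3c (0.96), Tlr3 to Rab27b (0.99), Cdkl2 (0.99) and Slc20a1 (0.98), and Mavs to Abi2 (0.97), Casp9 (0.95) and Zbtb14 (0.94). Rab27b, a GTPase of vesicle traffic, differed by -3.77 in 2151R and -4.75 in 2225L from 2208L, beside -1.88 and -2.30 for Tlr3.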

How the data were processed

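Poly(A) RNA of 15 tumours was sequenced (Illumina TruSeq mRNA kit, per the labels' protocols). The submitters' processing notes name STAR, Salmon and mm10, without versions or roles for the tools. The authors deposited 1 table of log2 values, centred per gene on a median per its name. The offset before the logarithm, the scaling between samples and the reference set are not given in the sources used here. The model named in a sample's title set its group, and replicate numbers follow accession order. Every gene of the table (17271) entered the limma model (version 3.58.1, R 4.3.3, empirical Bayes without a trend), with 1 mean per model and a shared spread. The PBS and 3day nt subsets were fitted on their 7 samples. Calls use a Benjamini-Hochberg adjusted p under 0.05 and no minimum fold. The code was tested on simulated data with 200 of 17271 genes changed. Across the 4 comparisons 20% to 52% of changes of 1 log2 unit were called, and 56% to 85% of changes of 2. Far more genes were called in the data, so these shares are not those of the data. A missing call does not show that a gene is equal. Named pathway genes are the called ones with the largest difference per list and direction against 2208L, with Irf3, Tbk1 and Ifnb1 where present. Some genes that this rule names are not reported here. Nearest genes exclude predicted symbols and genes with a repeated value. Ptprc falls outside this rule and was chosen after its values were seen. Promoters are from RefSeq on GRCm38.p6, and windows that hold an annotated exon are not printed. The 9 genes, the lists and the tests were chosen with earlier results of these data known. Alternatives varied scaling, filtering, weights, sample choice and threshold.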

Additional observations from a re-analysis of the deposited data

Results flagged for a closer look

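Ifih1 in replicate 2 of 2208L was 1.39, while the other 7 samples of the model lay from 0.35 to 0.79, a gap of 0.58 of the whole range. Among the 4 PBS samples alone the same sample stood apart, at 1.39 against 0.67 to 0.70 in the other 3. Among 27 groups of 4 or 8 samples tested, these were the 2 with a sample far from the rest, and chance gives about 1 in 20, or 1.35. Both flags rest on the same value, since the PBS samples are part of 2208L, so they are not independent. The sample also held the highest values of 2208L at Ddx58 (1.01), Tlr3 (2.17) and Stat2 (0.82).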

How the results depend on the processing

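No paired analysis was possible because the numbers in the titles, such as those after DH or KM in 2208L, link no sample to a sample of another group. Depth cannot be assessed, since the table holds no counts. Leaving out single samples gave 7 to 8 of the 9 genes lower in 2225L than in 2208L, 2 to 4 lower in 2151R than in 2208L, 5 to 6 lower in 2225L than in 2151R, and 0 to 2 lower in PBS than in 3day nt. Against 2151R the genes behind the 2225L count changed without replicate 2 of 2225L, as given for each gene above. The differences were then -0.40 at Ddx58, -0.79 at Stat2, -1.63 at Irf7 and -0.73 at Irf9. Where 1 sample of 2225L remained, its spread was taken wholly from the other models, and with both samples mostly from them. Across the other alternatives the 2225L count against 2208L stayed between 6 and 8. Against 2208L, the genes lower in 2151R were 6 with quantile normalization and 5 with sample weights, with only the 2 models compared or with 2208L 3day nt samples only, and sample weights called 1 higher (Mavs, 0.21). Without the 25% of genes of smallest SD, 2 were lower in 2151R, since Irf9 and Mavs are left out there; with p under 0.01, samples titled NT, nt or PBS only, PBS samples only or without the 3 muscle-high samples there were also 2. For PBS against 3day nt, centring each sample and sample weights each gave 1 higher (Mavs, 0.22 and 0.18), sample weights gave 2 lower, and quantile normalization, p under 0.01 and leaving out the muscle-high samples gave 0 lower. Signs changed for differences that were not called in the fits reported above. Mavs was 0.47 without replicate 1 of 2225L and -0.18 without replicate 2 against 2208L, and 0.23 and -0.41 against 2151R. Irf9 was 0.31 without replicate 1 and -0.73 without replicate 2 of 2225L against 2151R. For PBS minus 3day nt, Irf7 was 0.0092 with quantile normalization, Tlr3 was -0.078 without the muscle-high samples, and Stat2 ran from -0.051 without replicate 2 of 2208L to 0.15 without replicate 3. Over all genes, 2225L against 2208L gave 2693 higher and 2994 lower, but 958 and 1200 with sample weights and 1568 and 1860 at p under 0.01. For 2225L against 2151R, 3934 and 4464 became 2529 and 2723 with sample weights. For 2151R against 2208L, 4508 higher became 2658 in samples titled NT, nt or PBS. For PBS against 3day nt, 3007 higher and 2857 lower became 5938 and 5754 with sample weights, 1152 and 852 at p under 0.01, 76 and 22 without the muscle-high samples, which leaves 1 sample of 3day nt, 1723 and 1227 without replicate 6 and 1362 and 1017 without replicate 8, and the lower count was 1844 without replicate 2 and 1780 without replicate 3. Counts for the pathway lists under the alternatives were added after seeing the data. With sample weights 24 of the 84 pathway genes were lower in 2225L than in 2208L, in place of 44, and the 5 higher became 2 with sample weights or p under 0.01 and 3 with only the 2 models compared or without the 25% of genes of smallest SD. In 2151R against 2208L 24 higher became 12 in samples titled NT, nt or PBS. In 2225L against 2151R 13 effectors were lower, 5 with sample weights and 8 without replicate 1 of 2225L, and in 2151R against 2208L 8 were lower, 4 with 2208L PBS samples only. The cause of these changes was not tested unless stated.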

Other observations

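Inside 2208L, 6 of 10 endosomal Toll-like receptors and adaptors were higher and 0 lower in PBS samples than in 3day nt samples, with a median difference of 0.52 (limma adjusted p under 0.05), beside 17.4% of all genes higher. Their mean centred level ran from -0.14 to 0.45 in PBS and from -0.61 to -0.32 in 3day nt, without overlap. All 4 neutrophil markers were higher in PBS too, at 1.02 to 2.04 against -0.77 to 0.76, and their part in the Toll-like receptor values was not tested. The 14 RNA-sensing effectors held 1 higher and 2 lower in the same comparison. The Toll-like receptor count rests on single samples: it was 2 without replicate 2, 3 without replicate 3, 2 without replicate 6 and 1 without replicate 8 of 2208L, and 1 at an adjusted p under 0.01. It was 3 without the 25% of genes of smallest SD, and 7 with each sample centred on its median, quantile normalization or sample weights, with 1, 1 and 2 lower. Leaving out replicates 6 and 8, which were high in muscle genes, leaves 1 sample of 3day nt, and 0 of the 10 were then called, where 76 genes of the table were higher and 22 lower. These alternatives were chosen after seeing the data.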
